A study of Mus musculus with 20 samples.

Results

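The 33 genes described here encode the enzymes that build cholesterol and fatty acids and the proteins that control them. They were taken from the count table by symbol, through the table's Entrez gene IDs, and all 33 were found among its 23373 gene IDs. They fall into 7 genes of the mevalonate steps, 11 genes of the steps from squalene to cholesterol, 6 regulators and sterol transport genes and 9 genes of fatty acid synthesis. All 33 passed the filter on low counts, which kept 14343 genes for testing.

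RNA was sequenced from Hepa-1, a mouse hepatoma line whose medium held 5% serum and which was split at intervals of 3 days. The 20 libraries form 10 groups of 2. At passage 20, control-grown cells and cells grown for 20 passages with hexavalent chromium, Cr(VI), received either the solvent DMSO or benzo[a]pyrene (B[a]P), a polycyclic hydrocarbon that activates the aryl hydrocarbon receptor, for 8 hours. At passage 25 the same groups were sampled again, with 25 passages of Cr(VI) in the Cr(VI)-grown cells. A recovered population was added at passage 25 under both agents. By the labels it had spent 20 passages in Cr(VI) and the last 5 in plain medium. The titles of the passage 25 samples carry the number 27 instead, and the passage label is used throughout. By the labels the doses were 0.5 mM Cr(VI) and 5 mM B[a]P, with units quoted as labelled although the title speaks of low concentrations. No label says that duplicates were separate cultures, and every p-value below therefore reflects the scatter of these libraries, which may be technical. By its title, the study asked whether long growth in Cr(VI) disturbs the transcriptional response to B[a]P.

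Sterol and fatty acid synthesis share a control system. The SREBP proteins, encoded by Srebf1 and Srebf2, are held in the endoplasmic reticulum by SCAP and the INSIG proteins while sterols are plentiful. When sterols run low, SCAP carries SREBP to the Golgi, where proteases release the part that enters the nucleus and switches on most of the genes below. In liver cells this system sets how much cholesterol and fat the cell makes for its membranes and for secretion. INSIG1 is itself a target of SREBP and closes the loop.

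Upstream sequence was compared because these genes are known to share transcription factors and many of them were lower together in recovered cells below. RefSeq on GRCm38.p6 gave 250 bases before the start of transcription for 26 of the 33 genes. The stretches of 4 sterol genes and, for contrast, of the fatty acid elongase gene Elovl6 are shown 5′ to 3′ on the strand of the gene. Capitals mark TCACNCCAC (a form of the sterol response element), CCAAT (the box bound by NF-Y) and GGGCGG (the GC box bound by SP1), searched on both strands.
Hmgcs1, chr13:119690101-119690350, plus strand: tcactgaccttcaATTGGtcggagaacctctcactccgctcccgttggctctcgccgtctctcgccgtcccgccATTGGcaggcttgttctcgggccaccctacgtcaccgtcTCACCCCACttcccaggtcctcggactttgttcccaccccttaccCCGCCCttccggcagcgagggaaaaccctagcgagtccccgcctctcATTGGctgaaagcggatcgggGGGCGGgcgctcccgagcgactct
Idi1, chr13:8885356-8885605, plus strand: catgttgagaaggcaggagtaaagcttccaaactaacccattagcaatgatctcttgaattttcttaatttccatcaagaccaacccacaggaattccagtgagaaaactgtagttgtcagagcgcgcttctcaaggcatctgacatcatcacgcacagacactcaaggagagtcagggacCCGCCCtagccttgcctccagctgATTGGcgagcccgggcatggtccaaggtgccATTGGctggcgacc
Cyp51, chr5:4104698-4104947, minus strand: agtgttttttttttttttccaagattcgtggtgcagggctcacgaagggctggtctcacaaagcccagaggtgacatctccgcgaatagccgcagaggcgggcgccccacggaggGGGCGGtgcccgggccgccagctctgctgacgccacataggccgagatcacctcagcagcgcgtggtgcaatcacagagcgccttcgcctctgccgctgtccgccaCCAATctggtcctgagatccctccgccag
Nsdhl, chrX:72918271-72918520, plus strand: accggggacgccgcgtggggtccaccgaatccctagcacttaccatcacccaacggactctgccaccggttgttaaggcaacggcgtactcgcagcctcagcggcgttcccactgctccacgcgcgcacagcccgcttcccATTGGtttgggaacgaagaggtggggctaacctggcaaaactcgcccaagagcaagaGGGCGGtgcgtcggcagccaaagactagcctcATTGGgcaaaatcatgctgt
Elovl6, chr3:129532136-129532385, plus strand: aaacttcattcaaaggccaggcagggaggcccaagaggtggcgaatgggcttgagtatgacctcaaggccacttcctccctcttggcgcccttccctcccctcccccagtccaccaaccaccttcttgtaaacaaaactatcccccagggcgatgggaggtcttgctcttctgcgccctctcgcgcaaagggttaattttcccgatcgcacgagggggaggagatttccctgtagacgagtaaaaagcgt

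The stretch of Hmgcs1 held TCACNCCAC 137 bases before the start, and it was the only 1 of the 26 genes to hold it. TCACNCCAC was found in 1.22% of 27025 genes with such a stretch. Other forms of the sterol response element were not searched, so stretches without TCACNCCAC may hold one. CCAAT stood in 20 of the 26 genes and in 37.5% of all genes. GGGCGG stood in 22 of the 26 and in 35.4% of all genes. GCGTG, the core of the site bound by the aryl hydrocarbon receptor, stood in 14 of the 26 and in 30.9% of all genes. No marked matches overlapped each other in the sequences shown. Elovl6 held none of the marked motifs in this window, and the matches are a description of letters only.

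The cells expressed some liver genes and lacked others. As CPM (counts scaled to a common library total) per kilobase of exon, the median over 20 libraries was 675 for albumin (Alb), 369 for transferrin (Trf) and 57.7 for Afp. The hepatocyte factor Hnf4a had a median of 0.0177, and Apoa1 was at 0. Among markers of other cells, the cholangiocyte list had Krt7 (143), Krt19 (36.4) and Sox9 (9.78) present and Epcam near 0. The macrophage list had Cd14 (31.8), Csf1r (5.9) and Cd68 (3.83) present and Ptprc near 0. The stellate or fibroblast list had Col1a1 (46.6) and Pdgfrb (10.9) present and Des at 1.1. Its genes Col1a2 (0.00298) and Col3a1 (0.0383) were near 0. The endothelial genes Cdh5 and Tek and the fat cell genes Plin1 and Fabp4 were at or near 0, with no library above 0.0602. Total counts ranged from 20976045 to 37930720.

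Replicates differed in a way that matters for these genes. Between duplicates, 1.58% to 2.45% of all tested genes differed by more than 2-fold in 3 of the 4 passage 20 groups. The share was 32.2% in Cr(VI)-grown DMSO cells at passage 20 and 21% to 56.7% in the 6 passage 25 groups. At passage 25 the second library of each group differed from the first in the same way: the deviations of 2 groups correlated at 0.81 to 0.92 across genes, over 15 pairs of groups. At passage 20 the corresponding range was 0 to 0.59 over 6 pairs. The passage 25 libraries are therefore also described by replicate number, and a model with the replicate number as a block is given beside the main model.

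**Figure D1:**
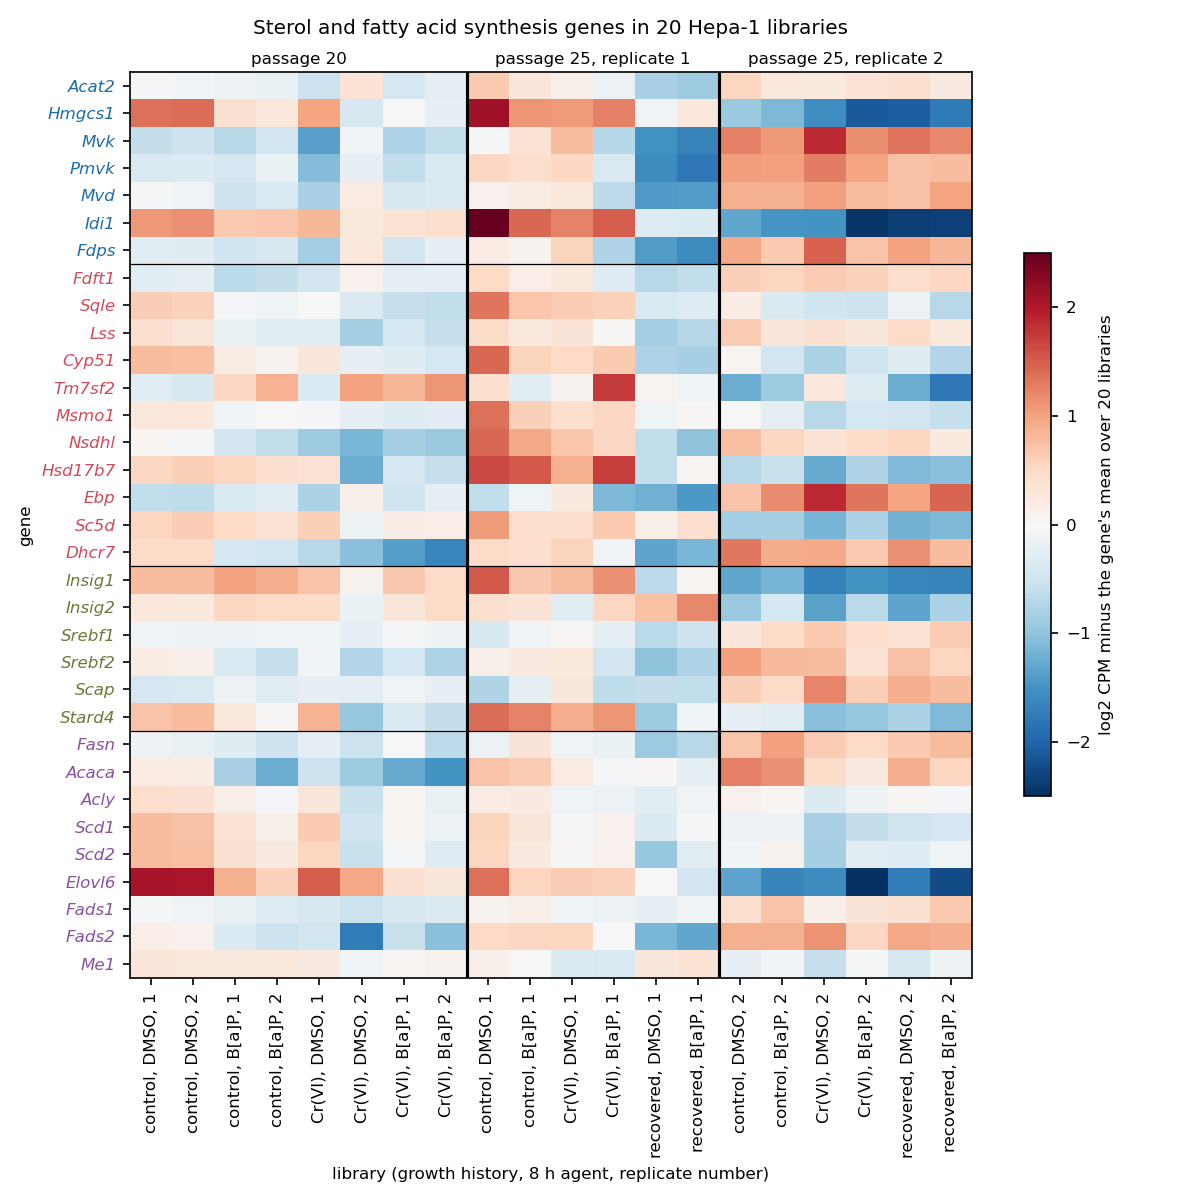
Level of each gene in each library as log2 CPM minus the gene's mean over 20 libraries, in columns by passage, replicate number, growth history and agent; gene labels are coloured by role and the colour scale is capped at both ends. Within replicate 1 of passage 25 the recovered libraries are low for most sterol genes, and replicate 2 of passage 25 stands apart for Hmgcs1, Idi1, Insig1 and Elovl6.

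The replicate difference followed the base composition of the transcripts. Of the 17 members with a GC content of 49.5% to 59.1%, 14 were higher in replicate 2 of passage 25, with a median log2 difference of 0.99. Of the 16 members at 41.9% to 49.1%, 3 were higher, with a median of -1.1. Spearman's rho between GC content and this difference was 0.83 over the 33 members and 0.63 over 13972 genes, as a description across genes that share libraries. Idi1, the isopentenyl diphosphate isomerase, showed the extreme: it was between 25.3 and 178 CPM in the 6 replicate 1 libraries and between 5.89 and 12.9 CPM in the 6 replicate 2 libraries. Mvk, the mevalonate kinase, went the other way in the same samples.

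**Figure D2:**
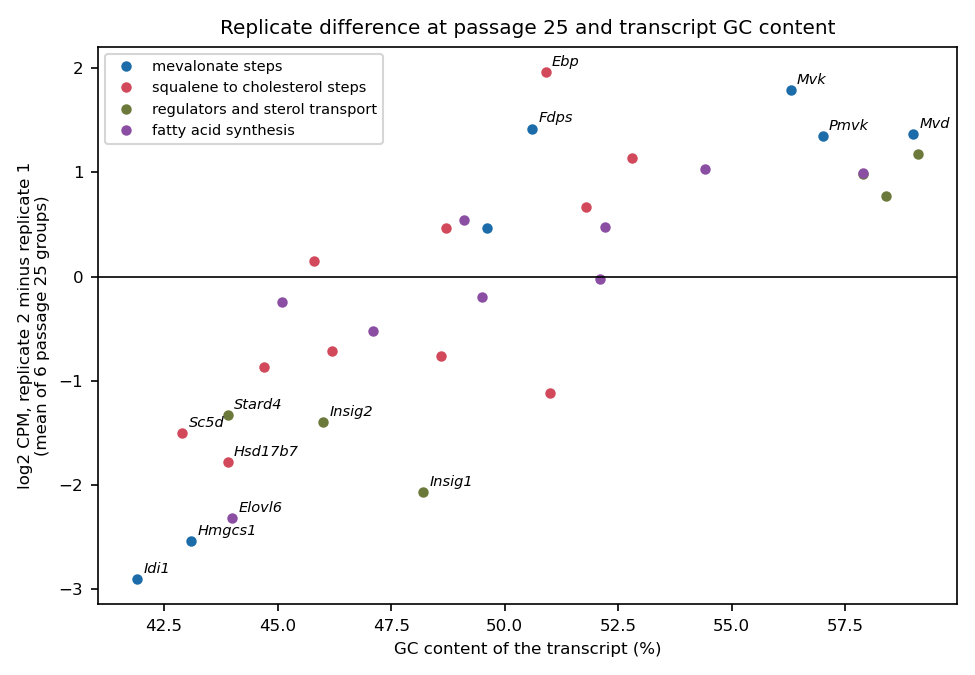
Mean difference of replicate 2 minus replicate 1 over the 6 passage 25 groups (log2 CPM, vertical) against the GC content of each gene's longest transcript (percent, horizontal), 1 point per gene, coloured by role. Genes with low GC content such as Idi1 and Hmgcs1 lie below 0 and genes with high GC content such as Mvk and Pmvk lie above it.

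Levels as CPM per kilobase of exon spread widely. Scd2, a stearoyl-CoA desaturase, was highest with a mean of 201 over the 20 libraries, followed by fatty acid synthase Fasn (61.6), ATP citrate lyase Acly (46.7) and farnesyl diphosphate synthase Fdps (46). These 3 overlapped in their ranges over the libraries (30.5 to 116, 31.5 to 62.5 and 13.2 to 111). Lanosterol synthase Lss (3.66) and the sterol reductase Tm7sf2 (0.401) were the lowest. Me1, the malic enzyme that supplies NADPH, and Acly were the steadiest, with a highest library 1.89-fold and 1.99-fold over the lowest, while Idi1 and Elovl6 ranged 30.3-fold and 29.5-fold.

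With B[a]P, Acaca, Elovl6, Sqle and Dhcr7 were lower and Insig2 was higher in the model with the replicate block, and no member passed without it. Over all growth histories, 24 of the 33 members had a negative log2 difference of B[a]P minus DMSO and the median was -0.16, against 0 for all 14343 genes, of which 50.4% were negative. The 18 sterol enzymes had a median of -0.20 (15 negative) and the 7 mevalonate genes were all negative, while the 9 fatty acid genes had a median of -0.04. The members' median was -0.01 (17 negative) without replicate 2 of recovered DMSO cells, -0.03 without replicate 1 of control-grown DMSO cells of passage 25, and -0.27 without replicate 2 of recovered B[a]P cells. In edgeR's quasi-likelihood test with Benjamini-Hochberg adjustment over all tested genes, 0 of 33 members passed the threshold of 0.05, and 1 had an unadjusted p under it. The background was 7.59% of 14343 genes. Fitted to all libraries, DESeq2 also called 0 members here, for B[a]P within each history, for growth in Cr(VI), for recovery and for the interaction term. With the replicate block, 5 of 33 members passed against 28.3% of all genes, a share below the background; 4 were lower and 1 higher, beside 14.1% of genes in each direction.

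Acaca, the acetyl-CoA carboxylase that commits carbon to fatty acids (chr11:84129635-84401651, GRCm38.p6), was lower with B[a]P in all 10 same-numbered pairs of libraries. In control-grown cells at passage 20 it was at 86.3 and 84.4 CPM with DMSO and at 42.5 and 31.5 with B[a]P. In Cr(VI)-grown cells at passage 20 it was at 52.4 and 40.2 CPM with DMSO and at 31.2 and 26.7 with B[a]P. The groups did not overlap at passage 20 in either growth history. At passage 25 it was at 122.4 and 179 CPM (DMSO) and 116 and 164 (B[a]P) in control-grown cells. In Cr(VI)-grown cells at passage 25 it was at 86.1 and 103 against 73 and 87.1 CPM. Recovered cells had 75.8 and 141 CPM with DMSO and 62.9 and 109 with B[a]P. At passage 25 the groups overlapped, and the second library was above the first in every group. The log2 difference over all growth histories was -0.51 ± 0.17 (SE; adjusted p = 0.0866 with edgeR). With the replicate block it was -0.51 ± 0.09 (adjusted p = 0.000533 with edgeR), so Acaca passed only there.

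Elovl6, which lengthens palmitate to stearate, was lower in all 10 pairs as well. At passage 20 control-grown cells had 100 and 99 CPM with DMSO against 44.6 and 36.1 with B[a]P. Cr(VI)-grown cells of that passage had 69 and 46.8 CPM against 31.2 and 29.4. At passage 25, control-grown cells had 62.2 and 9.66 CPM against 34.8 and 7.71. Cr(VI)-grown cells then had 37.1 and 8.1 CPM against 36 and 3.4, and recovered cells 24.2 and 7.18 against 17.4 and 5.08. The B[a]P libraries were below the DMSO libraries at passage 20, and at passage 25 the replicate number separated the values more than the agent did. The log2 difference was -0.73 ± 0.50 (adjusted p = 0.539 with edgeR), and -0.77 ± 0.14 with the block (adjusted p = 0.00101 with edgeR). With 1 library left out and no block it ran from -1.24 (without replicate 1 of Cr(VI)-grown B[a]P cells of passage 25) to -0.35 (without replicate 1 of control-grown DMSO cells of passage 25). In control-grown cells it ran from -1.76 to -0.08, the latter without the same DMSO library.

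Among the sterol steps, squalene epoxidase Sqle (chr15:59315092-59331193) and Dhcr7 (chr7:143823167-143848410), the last reductase of the pathway, were each lower in 9 of 10 pairs. Sqle was at 185 and 180 CPM with DMSO and at 116 and 112 with B[a]P in control-grown cells of passage 20. It was at 121.4 and 94.1 against 80.6 and 79.1 CPM in Cr(VI)-grown cells of that passage. At passage 25 Sqle was at 303 and 136 against 194 and 93.9 CPM in control-grown cells. It was then at 186 and 84.8 against 179 and 83.9 CPM in Cr(VI)-grown cells, and at 93 and 110 against 96.5 and 74.2 CPM in recovered cells. Its log2 difference with the block was -0.41 ± 0.13 (adjusted p = 0.0274 with edgeR).

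Dhcr7 was at 34.1 and 34.3 CPM with DMSO and at 18.1 and 17.6 with B[a]P in control-grown cells of passage 20. Cr(VI)-grown cells of passage 20 had 15.2 and 11.9 CPM against 9.37 and 7.96. At passage 25 Dhcr7 was at 34 and 61.3 against 32.6 and 46.9 CPM in control-grown cells. Cr(VI)-grown cells then had 36.2 and 47.4 against 22.9 and 38.8 CPM, and recovered cells 9.87 and 53.8 against 11.1 and 42. The groups were apart at passage 20 and overlapped at passage 25. Its log2 difference with the block was -0.50 ± 0.17 (adjusted p = 0.0469 with edgeR), and without it -0.51 ± 0.30 (adjusted p = 0.439 with edgeR). The value without the block ran from -0.76 to -0.17 with 1 library left out, the ends being replicate 2 of recovered B[a]P and of recovered DMSO cells.

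Insig2, which retains SCAP in the endoplasmic reticulum, was the 1 member called higher with B[a]P in the blocked model, at 0.39 ± 0.13 (adjusted p = 0.0434 with edgeR) and higher in 8 of 10 pairs. It was at 21.8 and 21.6 CPM with DMSO against 26.1 and 25.9 with B[a]P in control-grown cells of passage 20. Cr(VI)-grown cells of passage 20 had 25 and 16.3 against 22.6 and 25 CPM. At passage 25 the values were 24.1 and 9.55 against 23 and 13.4 CPM in control-grown cells. Cr(VI)-grown cells then had 15.2 and 7.25 against 26.1 and 11.4 CPM, and recovered cells 30.2 and 7.31 against 42.2 and 10.5. The agents' libraries overlapped in 4 of these 5 settings, all but control-grown cells of passage 20. Without the block the difference was 0.36 ± 0.33, and it ran from 0.09 to 0.63 without replicate 1 of recovered B[a]P and of recovered DMSO cells. Srebf2, the sterol-oriented SREBP gene, differed by -0.31 ± 0.25 (adjusted p = 0.648 with edgeR, 0.0701 with the block).

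**Figure D3:**
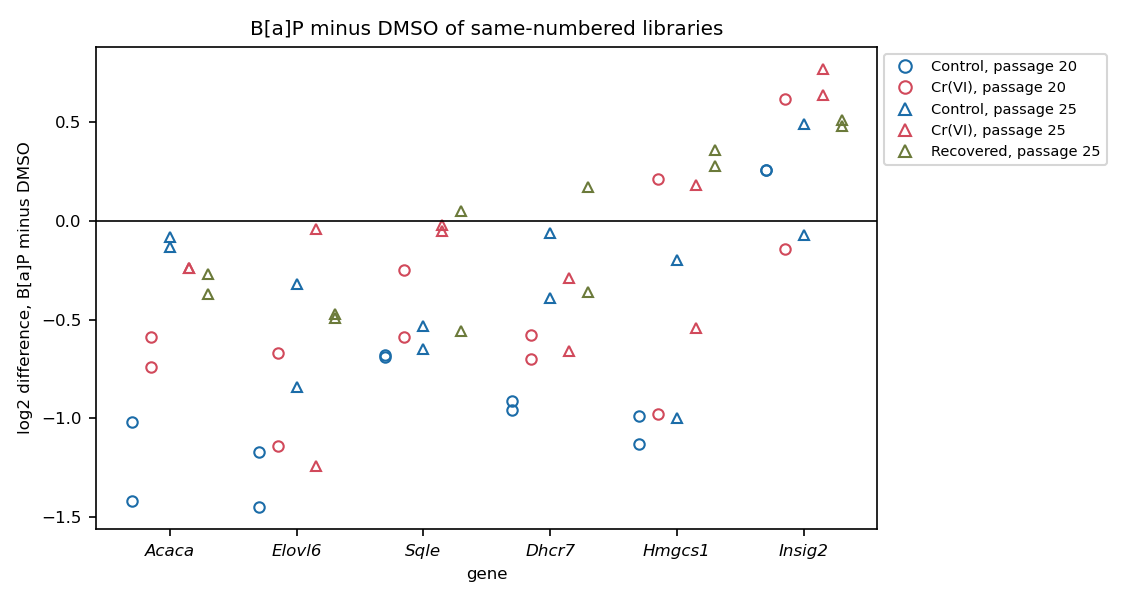
Log2 difference of B[a]P minus DMSO (vertical) for 6 genes (horizontal), 1 point per pair of libraries with the same replicate number, with circles for passage 20, triangles for passage 25 and colours for growth history. All 10 points of Acaca and of Elovl6 lie below 0, while the points of Hmgcs1 and Insig2 lie on both sides.

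The 4 genes with lower values under B[a]P kept their sign with either library set of passage 25 beside the same passage 20 libraries. With the replicate 2 libraries of passage 25 left out, Acaca, Elovl6, Sqle and Dhcr7 passed as lower without any block (background 7.28% of 14774 genes lower). With the replicate 1 libraries left out instead, the same 4 genes passed as lower (background 7.78% of 14454 genes). Their log2 differences were -0.50 ± 0.12, -0.72 ± 0.12, -0.36 ± 0.09 and -0.43 ± 0.10 in the former, with adjusted p = 0.0398, 0.0144, 0.0444 and 0.0394 in edgeR. In the latter they were -0.51 ± 0.11, -0.85 ± 0.13, -0.44 ± 0.09 and -0.52 ± 0.09, with adjusted p = 0.0293, 0.00741, 0.0193 and 0.016 in edgeR. Both models share the passage 20 libraries, and the lone library of each passage 25 group is assumed to vary like the passage 20 duplicates. Their agreement is therefore not independent evidence from either library set of passage 25.

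In control-grown cells the median of the members was -0.28 (25 of 33 negative, median of all genes -0.02), and 14 members were negative in all 4 pairs. Of all genes, 45.6% to 52.6% were negative in a single pair, and the share negative in all 4 was not counted. The median was -0.12 without replicate 1 of the DMSO cells of passage 25. At passage 20 all 9 fatty acid genes were negative in both pairs, and at passage 25 they split 5 to 4 and 3 to 6. In control-grown cells 0 of 33 members passed (background 2.2%), and 1 was below the threshold before adjustment. The block made 4 pass as lower: Acaca, Elovl6, Sqle and the HMG-CoA synthase Hmgcs1 (block background 16.7%, 9.15% lower). Hmgcs1 was at 125.3 and 128 CPM with DMSO and 63.1 and 58.4 with B[a]P at passage 20, and at 209 and 25.4 against 104 and 22.2 at passage 25. It was below in every pair of control-grown cells, by -0.85 ± 0.25 with the block (adjusted p = 0.0335 with edgeR) and -0.97 ± 0.87 without it (adjusted p = 0.908 with edgeR). With the block at passage 25 only its adjusted p was 0.0505 in edgeR, and the other 3 genes still passed. Without the first DMSO library of passage 25 its main value was 0.13. With the replicate 2 libraries of passage 25 left out the members' median was -0.25 (25 negative). With the replicate 1 libraries left out it was -0.20 (22 negative).

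In Cr(VI)-grown cells the median was -0.12 (24 of 33 negative) and in recovered cells 0.04 (16 of 33 negative). Both changed sign with 1 library: the former was 0.07 (14 negative) without replicate 1 of the DMSO cells of passage 20 and 0.10 (15 negative) without replicate 1 of those of passage 25. The latter ran from -0.35 (20 negative, without replicate 1 of the DMSO cells) to 0.39 (10 negative, without replicate 2 of the DMSO cells). In Cr(VI)-grown cells 0 of 33 members passed (background 0.941%, 0 unadjusted), and Acaca alone passed with the block at -0.45 (adjusted p = 0.0472 with edgeR, block background 11.3%, 5.47% lower). With the block at passage 25 only, where the numbers pair the libraries, its adjusted p in edgeR was 0.0708. With the replicate 1 libraries of passage 25 left out Elovl6 differed there by -1.08. The members' median in Cr(VI)-grown cells was then -0.06 (22 negative), and it was -0.16 (26 negative) with the replicate 2 libraries left out. In recovered cells 0 of 33 passed with either model in edgeR (background 0.0558%, with the block 1.5%), and 0 had an unadjusted p under 0.05 in the main model. Hmgcs1 showed the spread between histories: it was at 96.2 and 36.5 CPM with DMSO against 48.6 and 42.1 with B[a]P in Cr(VI)-grown cells of passage 20. At passage 25 it was at 101 and 16.4 against 115 and 11.3 CPM in Cr(VI)-grown cells, and at 45.4 and 11.6 against 58.3 and 14.1 CPM in recovered cells.

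The differences between histories were tested as interactions and 0 of 33 members passed. For B[a]P in Cr(VI)-grown minus control-grown cells, 24 of 33 members had a positive value and the median was 0.20, against 0.09 for all genes, of which 0% passed in edgeR, and 0 members had an unadjusted p under 0.05. The median was 0.03 without replicate 1 of the control-grown DMSO cells of passage 25, and 0.45 and 0.06 without replicates 1 and 2 of the Cr(VI)-grown DMSO cells of passage 20. The squalene to cholesterol genes were positive in 10 of 11 cases. Cyp51, the lanosterol demethylase, had 0.59 ± 0.53 (adjusted p = 1 with edgeR). Interactions of recovery with B[a]P and of passage with B[a]P, chosen after seeing the data, also gave 0 members in edgeR with either model. In the main model 0 had an unadjusted p under 0.05. With the block, the B[a]P difference of Acaca in control-grown cells was 1.12 higher at passage 25 than at passage 20 (edgeR, unadjusted p = 0.0011, adjusted p = 0.238). For recovered against Cr(VI)-grown cells, Ebp and Scap had unadjusted p = 0.0362 and 0.0233 with the block in edgeR (adjusted p = 0.911 for both). A smaller response to B[a]P in Cr(VI)-grown or recovered cells was therefore not shown for these genes.

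Cells grown in Cr(VI) had lower values of Acaca, Elovl6, Scd1 and 4 sterol genes in the model with the replicate block, and no member passed without it. This comparison uses the same control-grown libraries as those of B[a]P and of recovery. Averaged over agents and passages, 26 of 33 members were negative for Cr(VI)-grown minus control-grown, with a median of -0.32, against 0.02 for all genes, of which 47.7% were negative. All 9 fatty acid genes were negative, with a median of -0.43, and 5 of them were negative in all 8 pairs: Acaca, Acly, Scd1, Scd2 and the desaturase gene Fads1. Of the 18 sterol enzymes, Sqle, Lss, Msmo1 and Nsdhl were negative in all 8 pairs. The share of all genes negative in all 8 pairs was not counted. Under DMSO at passage 20 the fatty acid median was -0.26 in replicate 1 and -1.07 in replicate 2, and that of all members -0.27 and -0.76. These are the Cr(VI)-grown duplicates in which 32.2% of genes differed by more than 2-fold, and over the members their difference had a Spearman's rho of 0.51 with GC content and -0.55 with transcript length. In the other 6 pairs the fatty acid median lay between -0.46 and -0.22, and without the second of those duplicates the median of all members over both passages and agents was -0.27 (29 negative). That median was -0.21 without replicate 1 of the control-grown DMSO cells of passage 25. In edgeR's quasi-likelihood test 0 of 33 members passed (background 0%), with 3 below 0.05 before adjustment. Under the block 7 passed as lower, against 10.6% of all genes in either direction and 5.09% lower.

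The 7 were Acaca, Elovl6 and the stearoyl-CoA desaturase Scd1 of fatty acid synthesis, and Hmgcs1, Sqle, Dhcr7 and the methylsterol oxidase Msmo1 of sterol synthesis. The values of Acaca, Elovl6, Sqle, Dhcr7 and Hmgcs1 in each library are given above. Acaca differed by -0.67 ± 0.10 with the block (adjusted p = 0.0072 with edgeR), and the others by -0.41 to -0.72 with adjusted p = 0.031 to 0.0429. With the block at passage 25 only, Acaca, Dhcr7, Sqle and Msmo1 passed, while Elovl6, Hmgcs1 and Scd1 had adjusted p = 0.0582, 0.0581 and 0.067 in edgeR. Without a block and without replicate 1 of the control-grown DMSO cells of passage 25, Hmgcs1 and Elovl6 differed by -0.04 and -0.02. Without replicate 1 of the Cr(VI)-grown B[a]P cells of passage 25 they differed by -1.21 and -1.13. In control-grown cells Scd1 was at 294 and 284 CPM with DMSO and 218 and 190 with B[a]P at passage 20, and at 253 and 155 with DMSO and 212 and 158 with B[a]P at passage 25. Cr(VI)-grown cells had 270.3 and 122.3, then 180 and 157 CPM at passage 20, and 166 and 97.3, then 185 and 113 CPM at passage 25. Within an agent and passage the Cr(VI)-grown libraries lay below the control-grown ones under DMSO at passage 20 and under B[a]P at passage 20, and overlapped them at passage 25.

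Msmo1 in control-grown cells was at 62.5 and 61.9 CPM (DMSO) and 48.2 and 51.8 (B[a]P) at passage 20, and at 135 and 52.5 (DMSO) and 78.1 and 44.1 (B[a]P) at passage 25. In Cr(VI)-grown cells it was at 50 and 44.7, then 42 and 42.8 CPM at passage 20, and at 68.8 and 32.1, then 74.4 and 38.1 CPM at passage 25. It too was apart at passage 20 and overlapped at passage 25. The 2 library sets of passage 25 gave medians of -0.31 and -0.35 over the members. The difference between passages was not called for any member (lowest adjusted p = 1 with edgeR).

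In the replicate 1 libraries recovered cells had less sterol synthesis transcript than the other passage 25 cells, and in the replicate 2 libraries the differences were smaller; over both, no member passed the test. Over both libraries, 29 of 33 members were negative for recovered minus control-grown at passage 25, with a median of -0.50, against 0.06 for all genes, of which 37.3% were negative. The 18 sterol enzymes had a median of -0.59 (17 negative), and the 9 fatty acid genes -0.48 (8 negative). The members' median ran from -0.90 without replicate 2 of recovered DMSO cells to -0.35 without replicate 1 of them. In edgeR 0 of 33 members passed (background 0%) with 6 below it before adjustment. With the block 0 passed in edgeR (background 0.00697%, 1 gene), 25 were below 0.05 unadjusted, and the lowest adjusted p was 0.0761, for Idi1. Against Cr(VI)-grown cells, which share the recovered libraries with that comparison, 28 of 33 members were negative with a median of -0.34 (-0.67 and -0.08 without the same libraries), 0 passed in edgeR (background 0%), and 1 had an unadjusted p under 0.05.

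The replicate numbers split these values. Under DMSO, all 18 sterol enzymes were lower in the recovered than in the control-grown library of replicate 1, with a median of -1.55. In replicate 2 it was 15 of 18 with a median of -0.20. Under B[a]P the counts were 16 of 18 with -1.35 in replicate 1, and 14 of 18 with -0.27 in replicate 2. The 9 fatty acid genes followed with 8 of 9 lower in each of the 4 pairs and medians of -0.76 and -0.48 in replicate 1 against -0.21 and -0.18 in replicate 2. The median over all genes was between 0 and 0.10 in these pairs. Over 4 pairs, 22 of 33 members were lower in each. Of all genes, 43.9% to 49.3% were lower in a single pair, and the share lower in all 4 was not counted.

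Against Cr(VI)-grown cells all 18 sterol enzymes were lower in recovered cells in replicate 1 under both agents, with medians of -1.28 under DMSO and -0.93 under B[a]P. In replicate 2 the counts were 10 and 11 of 18, with medians of -0.11 and -0.09. Fatty acid genes were lower in 8 and 6 of 9 cases in replicate 1 and in 2 and 1 of 9 in replicate 2, where their medians were 0.24 and 0.29. Whether replicate 1 and replicate 2 differ in this respect was not tested, since each holds 1 library per group.

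Of the 33 members, Idi1 had the lowest value against control-grown cells over both libraries (-2.11 ± 0.99, adjusted p = 1 with edgeR). In replicate 1 it was at 178 CPM (DMSO) and 86.5 (B[a]P) in control-grown cells, 75.2 and 90.9 in Cr(VI)-grown cells, and 25.6 and 25.3 in recovered cells. In replicate 2 the same order of groups gave 12.9 and 11.4, then 11.3 and 5.89, and 6.23 and 6.28 CPM. Recovered libraries were below the control-grown ones in all 4 pairs. Nsdhl, a sterol dehydrogenase, was at 69.7 and 49.3, then 41.4 and 37, and 16.9 and 12.8 CPM in replicate 1, and at 43.3 and 37.3, 32.8 and 35.4, and 37.4 and 30.6 CPM in replicate 2. Cyp51 was at 112 and 60.6, then 58.9 and 65.2, and 24.4 and 23.3 CPM in replicate 1, and at 43.6 and 30, 24.1 and 29.4, and 33.4 and 24.9 CPM in replicate 2. For both, recovered cells stood lowest in replicate 1. In replicate 2 they lay between the other groups under DMSO and lowest under B[a]P.

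Hmgcs1, Sqle and Dhcr7, whose values are given above, were also below control-grown cells in each pair. Msmo1 in recovered cells was at 48.2 and 52.8 CPM in replicate 1 and 37 and 34.6 CPM in replicate 2, below control-grown cells in each pair. Hsd17b7, another late sterol enzyme, was at 63.5 and 58.6 CPM in control-grown, 37.2 and 66.7 in Cr(VI)-grown and 13.2 and 21.2 in recovered cells in replicate 1. In replicate 2 it was at 12.4 and 13.8, 8.46 and 11.9, and 9.33 and 9.78 CPM. Stard4, a carrier of sterols between membranes, was at 65.5 and 58.8, 46.7 and 54, and 13.3 and 23.3 CPM in replicate 1, and at 21.7 and 20.6, 12.2 and 13, and 14.4 and 11.6 CPM in replicate 2. Insig1 was at 86.2 and 47.4, 50.8 and 65.6, and 19 and 31.1 CPM in replicate 1, and at 12.2 and 13.3, 9.2 and 10.6, and 9.6 and 9.48 CPM in replicate 2. Each of these was below control-grown cells in all 4 pairs.

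Insig2 and Me1 were the 2 members higher in recovered than in control-grown cells under both agents in replicate 1. In replicate 2 another 6 members were higher under both agents. They were 3 sterol enzymes, 2 genes of the regulators and sterol transport, and 1 fatty acid gene. Insig2 in recovered cells was above control-grown cells by 0.33 and 0.87 on the log2 scale in replicate 1 and below by -0.38 and -0.36 in replicate 2. Me1 differed by 0.15 and 0.33 in replicate 1 and by -0.21 and -0.06 in replicate 2. Scd2 and Acly were the members whose 4 recovered libraries all lay below the 4 control-grown libraries of passage 25, as 0.314% of all genes did. Scd2 was at 539, 831, 872 and 973 CPM in recovered cells against 1000 to 1520 CPM, with a log2 difference of -0.61 ± 0.30 (adjusted p = 1 with edgeR). Acly was at 199, 230, 236 and 247 CPM against 250 to 286 CPM.

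**Figure D4:**
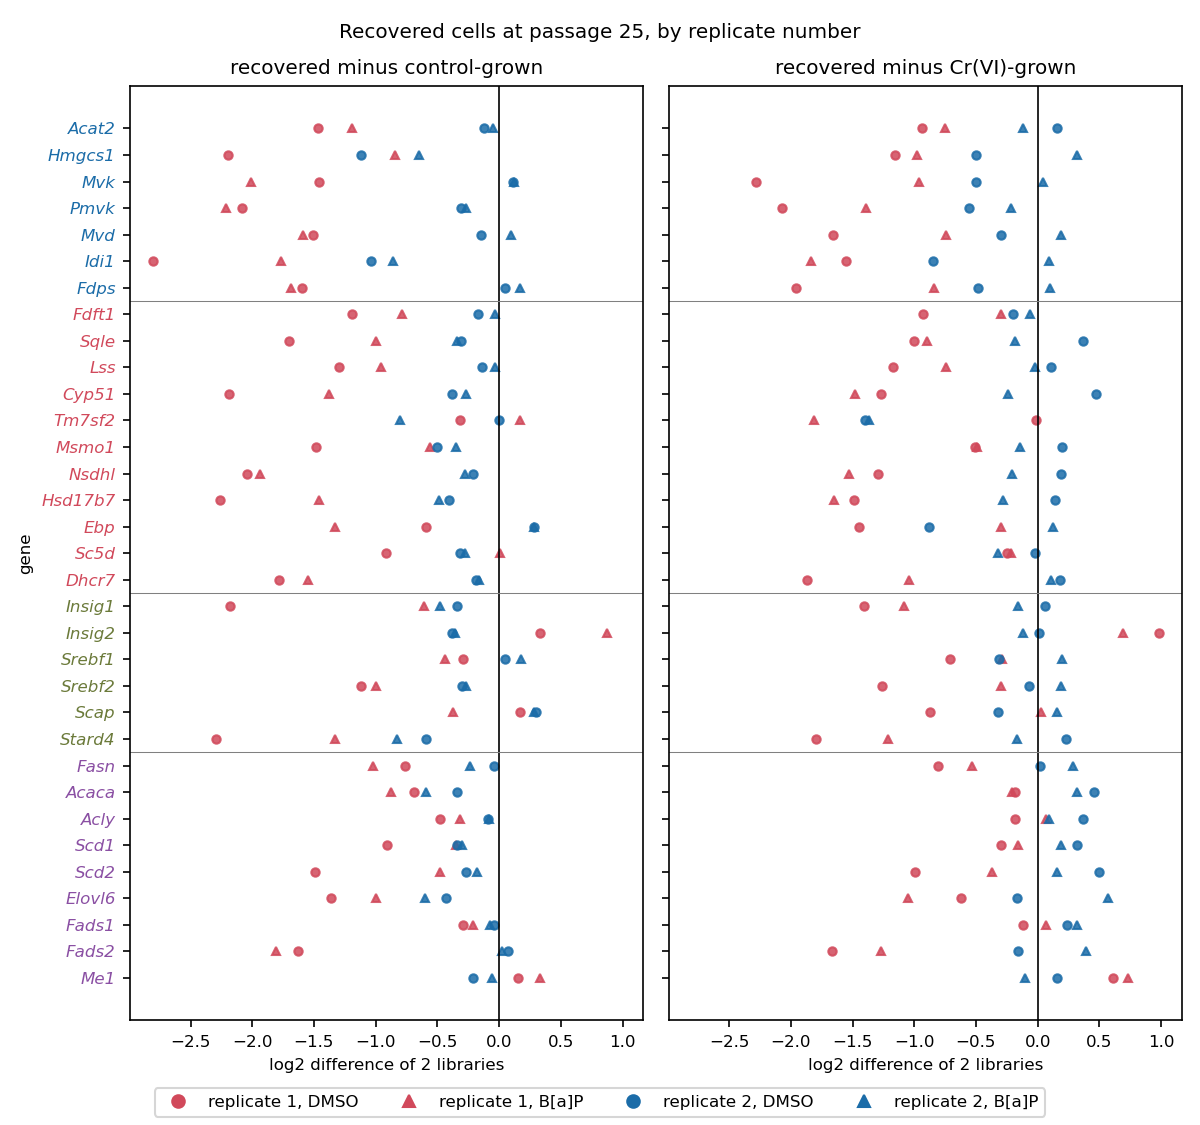
Log2 difference of recovered minus control-grown (left) and recovered minus Cr(VI)-grown cells (right) at passage 25 for each of the 33 genes, 1 point per pair of libraries, in red for replicate 1 and blue for replicate 2, with circles for DMSO and triangles for B[a]P. Most sterol genes lie far below 0 in red and close to 0 in blue.

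Models with 1 library set of passage 25 beside the passage 20 libraries, chosen after seeing the data, put numbers on this split. With replicate 1 alone, 6 members passed as lower in recovered than in control-grown cells, all sterol enzymes, among 28 genes (0.19% of 14774) that did so. They were Idi1 (-2.32 ± 0.21, adjusted p = 0.0267), Nsdhl (-2.03 ± 0.17, 0.0267), Cyp51 (-1.82 ± 0.19, 0.0307), Dhcr7 (-1.70 ± 0.19, 0.0307), Sqle (-1.39 ± 0.16, 0.0307) and Msmo1 (-1.06 ± 0.13, 0.0415), by edgeR's adjusted p. Against Cr(VI)-grown cells 5 passed as lower, the same without Msmo1, among 0.42% of genes. With replicate 2 alone 0 members passed in either comparison in edgeR (background 0% of 14454 genes), and 2 and 1 had an unadjusted p under 0.05. There Idi1 differed from control-grown cells by -0.96 ± 0.21 (adjusted p = 0.996 with edgeR) and Nsdhl by -0.25 ± 0.16. Each of these models rests on 1 recovered library per agent and takes its spread from passage 20, with 4 residual degrees of freedom. Passage 20 duplicates differed by more than 2-fold in 1.58% to 2.45% of genes, and in 32.2% for Cr(VI)-grown DMSO cells. For recovered duplicates it was 50.1% with DMSO and 54.1% with B[a]P. Spread within 1 library set of passage 25 could not be measured. The adjusted p-values and counts of these models therefore cannot show that recovered cells differed, and the log2 differences describe single libraries.

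Base composition and transcript length were also set beside the differences of recovered cells in each replicate. Spearman's rho between GC content and recovered minus control-grown was 0.19 over the members and -0.22 over 13972 genes in replicate 1. In replicate 2 it was 0.73 and 0.38. For recovered minus Cr(VI)-grown cells it was 0.06 and -0.34 in replicate 1, and 0.03 and -0.11 in replicate 2. With transcript length, rho against control-grown cells was 0.28 and 0.2 in replicate 1, and -0.26 and -0.34 in replicate 2. Against Cr(VI)-grown cells it was 0.35 and 0.17, then 0.57 and 0.27. The part of library composition in the result was not tested beyond these values.

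Between passages, 6 members were higher at passage 25 than at passage 20 and 0 lower, over control-grown and Cr(VI)-grown cells. The background was 19.4% of all genes, 10.1% higher and 9.29% lower. The members' median was 0.44 (24 of 33 positive, all genes -0.04), the sterol enzymes had 0.60 (16 of 18 positive) and the fatty acid genes -0.11. Passage and any difference in how the libraries of each passage were made cannot be told apart.

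Acaca ranged from 26.7 to 86.3 CPM with a median of 41.4 in the 8 libraries of passage 20, and from 73 to 179 CPM with a median of 110 in the 8 of passage 25. Its log2 difference was 1.31 ± 0.19 (adjusted p = 0.00062 with edgeR). Nsdhl ranged from 11.7 to 26.5 CPM (median 15.6) and from 32.8 to 69.7 CPM (median 39.3), a difference of 1.33 ± 0.22 (adjusted p = 0.00156 with edgeR). Nsdhl was the member whose libraries did not overlap between passages, as 2.2% of all genes were without overlap in this direction. Dhcr7 ranged from 7.96 to 34.3 CPM (median 16.4) and from 22.9 to 61.3 CPM (median 37.5), a difference of 1.27 ± 0.34 (adjusted p = 0.0228 with edgeR). Fads2, the first desaturase of polyunsaturated fatty acids, ranged from 16.9 to 64 CPM and from 56.1 to 123.6 CPM, a difference of 1.15 ± 0.35 (adjusted p = 0.0366 with edgeR).

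Squalene synthase Fdft1 ranged from 42.8 to 74 CPM and from 54.9 to 106 CPM, with a difference of 0.71 ± 0.22 (adjusted p = 0.0407 with edgeR). Fads1 ranged from 100 to 141 CPM and from 132 to 238 CPM, with a difference of 0.50 ± 0.16 (adjusted p = 0.0472 with edgeR). Acaca and Nsdhl passed whichever of the 16 libraries was left out, while Dhcr7, Fads2, Fdft1 and Fads1 no longer passed in 10, 12, 13 and 13 of these 16 models. Scd1 and Scd2 are close copies, and Acat2 overlaps its copy Acat3, so reads from shared stretches may have been counted for either. With the block 26 members passed, 18 higher and 8 lower, against 63.3% of all genes (28.2% higher, 35.1% lower). The 8 lower ones were Hmgcs1, Idi1, Sc5d, Insig1, Insig2, Scd1, Elovl6 and Me1. Hmgcs1 and Idi1 were not lower without the block, at 0.07 ± 0.61 and 0.13 ± 0.67.

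The direction between passages depended on the library set for 12 members, whose differences had opposite signs with replicate 1 and with replicate 2 of passage 25 alone. The share of all genes with opposite signs was not counted. With replicate 1 alone 14 members passed as higher (background 12.9%), and with replicate 2 alone 17 passed as higher and 12 as lower (31.3% and 38.6%). Positive with replicate 1 and negative with replicate 2 were Idi1 (1.03 and -2.34), Hmgcs1 (0.91 and -1.93), Sqle (0.91 and -0.23), Cyp51 (0.68 and -0.55), Msmo1 (0.82 and -0.27), Hsd17b7 (1.42 and -0.87) and Stard4 (1.03 and -0.76). Insig1, Sc5d, Tm7sf2 and Scd2 had the same pattern of signs, at 0.38, 0.31, 0.08 and 0.02 with replicate 1 and -2.08, -1.26, -0.98 and -0.50 with replicate 2. Scap was at -0.05 with replicate 1 and 0.99 with replicate 2, and Srebf1 at 0 and 0.59.

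Cell type markers moved between passages as well. Of 8 tested hepatocyte markers Alb was higher (1.97, adjusted p = 0.00497 with edgeR) and Apob, near 0 throughout, was lower. Of 4 macrophage markers 1 was higher and 2 lower, of 4 stellate or fibroblast markers 1 was higher and 1 lower, of 3 cholangiocyte markers 1 was lower, and the 1 endothelial marker tested, Pecam1, was lower, beside the 10.1% of genes higher and 9.29% lower given above. The summed hepatocyte markers were at 753 to 983 CPM per kilobase at passage 20 and 851 to 3280 at passage 25, and at 639 to 1780 in replicate 1 against 2370 to 3400 in replicate 2. The summed cholangiocyte markers were at 55.3 to 168 in replicate 1 and 241 to 361 in replicate 2. With B[a]P, the macrophage marker Cd68 rose (1.00) and the cholangiocyte marker Sox9 fell by 0.72. In recovered minus control-grown cells 0 markers passed in edgeR. The part of these markers in the results was not tested.

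**Figure D5:**
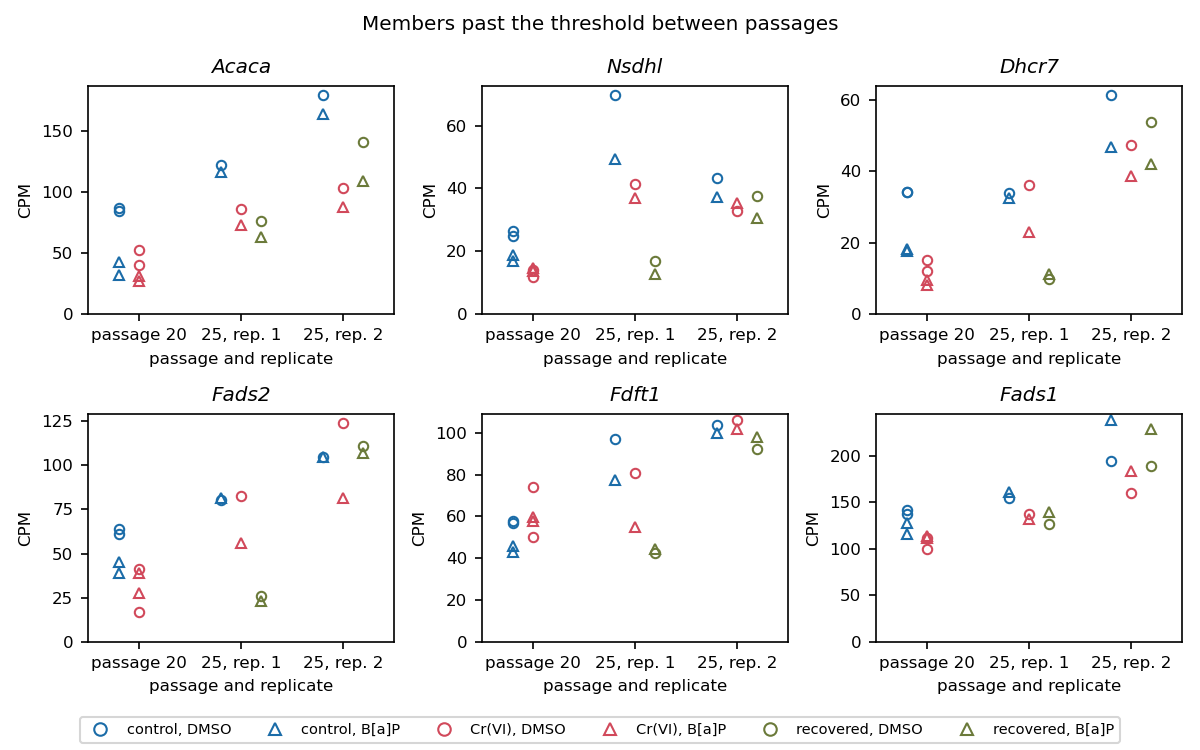
CPM (vertical, from 0) of the 6 genes past the threshold between passages, in the passage 20 libraries and in replicates 1 and 2 of passage 25, with colours for growth history, circles for DMSO and triangles for B[a]P. Nsdhl, Dhcr7, Fads2 and Fdft1 are low again in the recovered libraries of replicate 1, and Acaca and Fads1 lie within their passage 20 ranges there.

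Related genes of the pathway were chosen as lists of their own. Of 23 tested lipogenic genes, 2 were called higher with B[a]P over all growth histories and 0 lower (background 7.59%). Lpin1, which makes the diacylglycerol for fat and phospholipids, rose by 1.10 ± 0.21 (2.14-fold, adjusted p = 0.00584 with edgeR). It was at 18 and 17.3 CPM with DMSO and 36.8 and 30.8 with B[a]P in control-grown cells of passage 20, and at 13.3 and 8.21 against 37.2 and 26.7 CPM in recovered cells. Dgat2, the acyltransferase that finishes triglyceride synthesis, rose by 0.66 ± 0.17 (adjusted p = 0.0334 with edgeR). With the block, Pgd and G6pdx of the pentose phosphate pathway were also higher (1.07 and 0.49, adjusted p = 4.8e-05 and 0.00487 with edgeR), and Elovl5, Mid1ip1, Fabp5 and Tmem97 were lower (-0.25 to -0.67). The block background was 28.3% of all genes, 14.1% in each direction.

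Of 11 tested genes of sterol efflux, esters and the LXR receptors, the oxysterol binding protein gene Osbpl2 rose with B[a]P (0.57 ± 0.14, adjusted p = 0.0222 with edgeR). The backgrounds were again 7.59% of all genes, and 28.3% with the block. With the block Osbp was also higher (0.40) and the cholesterol exporter gene Abca1 lower (-0.84, adjusted p = 0.00534 with edgeR). Of 9 genes of the isoprenoid branch, Pdss2 of coenzyme Q synthesis fell by 0.98 ± 0.16 (adjusted p = 0.00217 with edgeR). It was at 14 and 13.1 CPM with DMSO and 5.58 and 5 with B[a]P in control-grown cells of passage 20, and at 11.9 and 13.9 against 8.04 and 5.6 CPM in recovered cells. With the block Pdss1 and Fntb were lower too (-0.32 and -0.44). Of the 7 genes that cleave SREBP or act with INSIG, 0 passed in edgeR, with 1 below 0.05 before adjustment. Under the block Ubxn8 was higher (0.25) and Erlin1 lower (-0.38).

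With growth in Cr(VI), 0 genes of these related lists passed in edgeR, as for all genes (1244 genes had an unadjusted p under 0.05). With the block the protease gene Mbtps2 (-0.69), Erlin1 (-0.41) and Erlin2 (-0.48) of SREBP handling, Osbp (-0.44), Acss2 (-0.72) and Elovl5 (-0.39) were lower. The block background was 10.6% of all genes in either direction and 5.09% lower. In recovered minus control-grown cells 0 related genes passed with either model. The list medians there were 0.10 (isoprenoid branch), 0 (other lipogenic genes), 0.01 (efflux) and 0.09 (SREBP cleavage), beside -0.59 for the sterol enzymes. These medians pool both replicates and do not describe replicate 1 alone. In replicate 1 under DMSO, Acss2 had 538 raw counts in control-grown and 117 in recovered cells, and Tmem97 6585 and 2776. G6pdx went the other way with 6608 and 8564, and the library totals were 34290046 and 27076914. Between passages 4 of 23 tested lipogenic genes were higher (Acss2, Agpat2, Dgat1 and Tmem97, by 1.21 to 2.25) and Gpam fell by 1.85. Of 11 tested efflux genes, Nr1h3 and Stard3 were higher (1.33 and 1.01) and Soat1 fell by 0.80. The background between passages was 10.1% of all genes higher and 9.29% lower.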

How the data were processed

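Gene counts of 20 Hepa-1 libraries were used as the authors deposited them, as whole-number read counts per Entrez gene with no normalization. TopHat, DESeq, bcl2fastq, CASAVA 1.8 and the mm10 build are listed, per the submitters' processing notes, with no step assigned to any. Counter, annotation and strandedness: not given in the sources used here. Of 23373 gene IDs, 23275 matched a symbol, and library totals ran from 20976045 to 37930720.

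Low counts were filtered with edgeR 4.0.16 (R 4.3.3), leaving 14343 genes. The quasi-likelihood test used TMM scaling, 1 mean for each of 10 groups and 10 residual degrees of freedom, with a threshold of 0.05 on Benjamini-Hochberg adjusted p over all genes. The script was tested on simulated data. CPM used TMM-scaled totals, and log CPM a prior count of 2. Per-kilobase values used exon lengths of GENCODE M21. Each library was counted as 1 replicate. Duplicates differed by more than counting noise in every group, which does not show that they were separate cultures. The median squared difference over that of counting noise ran from 1.8 (control-grown DMSO cells of passage 20) to 499.8 (Cr(VI)-grown B[a]P cells of passage 25). At passage 25 equal replicate numbers paired the libraries (all 15 correlations from 0.81 to 0.92), so blocked values (8 residual degrees of freedom, common dispersion 0.045 against 0.228) stand beside the main ones; at passage 20 (0 to 0.59) they did not pair throughout. DESeq2 1.42.0, other size factors, no filter and left-out libraries were alternatives.

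The members and lists were chosen with earlier results of these data known. Members past the threshold in either model, and in each role group the 2 largest differences for B[a]P and for recovery, were to be named with library values; for genes past it only between passages with the block, the heatmap carries them.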

Additional observations from a re-analysis of the deposited data

How the results depend on the processing

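The threshold calls depended on how the replicate number was treated. With the replicate block, the members past the threshold were 5 for B[a]P over all histories, 4 in control-grown cells, 1 in Cr(VI)-grown cells, 7 for growth in Cr(VI) and 26 between passages, against 0, 0, 0, 0 and 6. With the block at passage 25 only, chosen after seeing the data as were the library-set models, they were 5, 3, 0, 4 and 26. With replicate 1 of passage 25 alone they were 4 for B[a]P over all histories, 4 in control-grown cells, 6 and 5 for recovered cells against control-grown and Cr(VI)-grown cells, and 14 between passages. With replicate 2 alone they were 4 for B[a]P, 1 in Cr(VI)-grown cells and 29 between passages. DESeq2 gave 11 members between passages, and a model of only the libraries compared gave 13. The cause was not tested. Over all genes, B[a]P called 1089 in the main model, 4056 with the block and 1787 with DESeq2. In control-grown, Cr(VI)-grown and recovered cells B[a]P called 316, 135 and 8 genes, 2399, 1620 and 215 with the block, 773, 473 and 105 with DESeq2, 178, 70 and 8 with no filter on low counts, and 522, 2 and 0 in models of only the libraries compared. Growth in Cr(VI) called 0, 1514 and 163, and recovered against control-grown cells 0, 1 and 13. Between passages these were 2779, 9082 and 4186.

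Leaving out 1 library gave 0 to 1 members for B[a]P over all histories (1 without replicate 1 of recovered DMSO cells or replicate 2 of recovered B[a]P cells), 2 to 10 between passages (10 without replicate 1 of Cr(VI)-grown B[a]P cells at passage 25), and 0 in the other comparisons. The B[a]P difference of Hmgcs1 in control-grown cells ranged from -1.73 to 0.13. Between passages Hmgcs1 (0.07) ranged from -0.55 to 0.29 and Idi1 (0.13) from -0.62 to 0.36. With the block they were -0.50 and -0.63, with the block at passage 25 only -0.52 and -0.64, and with replicate 2 alone -1.93 and -2.34. Among the 12 members whose passage difference had opposite signs in the 2 library sets, Msmo1 was at -0.27 with replicate 2 alone, and Insig1, Sc5d and Scap were at 0.38, 0.31 and -0.05 with replicate 1 alone; Srebf1 was at 0 there.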
